A study of Mus musculus with 19 samples.

Results

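The adult contraction genes of skeletal muscle were followed through mouse skin that was healthy, that carried early basal cell carcinoma (BCC), or that carried BCC and had been treated. The set holds 35 genes for the sarcomere, its calcium supply and its energy supply in fast and slow muscle fibres. It was chosen by gene name, with earlier results of these data known, and 35 of 35 were found among the 18521 genes of the count table. Of these, 34 passed the filter on low counts and were tested, and the slow light chain Myl2 did not.

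RNA was sequenced from 1 cm2 pieces of skin of 16 female mice, in 19 libraries. Each mouse, the healthy ones included, carried the alleles Ptch1+/- K14-CreER2 p53fl/fl. They lack 1 working copy of the Hedgehog receptor gene Ptch1, and tamoxifen lets a Cre recombinase driven by the keratin 14 promoter remove the floxed Trp53 gene in keratinocytes, so muscle fibres are not the cells in which that Cre is made. The healthy group (5 mice, 128 to 137 days old) was neither induced nor treated. The BCC group (4 mice, 278 to 320 days old, 130 to 144 days after induction) received 3 intraperitoneal injections of 300 µg tamoxifen and x-rays of 4 Gy, and no treatment. The AFL group (3 mice, 228 to 326 days old, 80 to 126 days after induction) was induced likewise and had 1 pass of an ablative fractional laser, which drills a grid of microscopic columns into the skin, set to 40 mJ for each microbeam and covering 5% of the surface. The vismodegib group (4 mice, 268 to 326 days old, 109 to 137 days after induction) was induced likewise and had 8 applications of vismodegib, an inhibitor of the Hedgehog signal transducer Smoothened. The labels place the samples at day 4, and no sham or vehicle group was used here. Age and induction differed together between the healthy and the induced groups, so their parts cannot be told apart.

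Muscle contracts when thick filaments of myosin pull on thin filaments of actin between the Z-discs of the sarcomere. Calcium released from the sarcoplasmic reticulum binds troponin C on the thin filament and starts the cycle, and fibres come in fast and slow kinds that use different genes for myosin, troponin and the calcium pump. Mouse skin rests on the panniculus carnosus, a thin sheet of striated muscle made mainly of fast fibres, and a skin piece can hold more or less of it. In such bulk samples fewer muscle cells and less RNA per muscle cell cannot be told apart.

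Library totals lay between 27185900 and 33556600 counts. A pair of libraries existed for each of mouse 16 (healthy), mouse 11 (AFL) and mouse 12 (vismodegib), and these were summed so that the mouse was the replicate. Levels are given as CPM, counts scaled to a common library size after TMM scaling. The scaling factor of vismodegib mouse 9 was 0.591, while those of the other mice lay between 0.906 and 1.18, so its CPM values stand higher against its share of counts than those of other mice. The 14 keratinocyte genes used to check the skin label summed to 17111 CPM or more in each mouse. The heart genes Myh6 (at most 0.127 CPM) and Nppa (at most 0.0609 CPM) were at or near 0. They do not stand for the whole cardiac list of 9 genes, which summed to between 4.41 and 15.4 CPM in a mouse. In each list of values the mice stand in the order 10, 13, 14, 15 and 16 (healthy), 3, 4, 5 and 8 (BCC), 2, 7 and 11 (AFL), and 1, 6, 9 and 12 (vismodegib).

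Skin pieces of one group differed several-fold in how much muscle RNA they held. The 35 genes took 0.954%, 1.13%, 1.21%, 3.34% and 4.42% of all counts in the healthy mice. They took 0.332%, 0.504%, 0.975% and 1.11% in BCC. The AFL mice held 0.456%, 1.99% and 0.154%, and the vismodegib mice 1.76%, 0.378%, 0.631% and 0.606%. Healthy mice 15 and 16, AFL mouse 7 and vismodegib mouse 1 were high, and each treated group spanned values from below the BCC median to above the BCC maximum. The 95% Wilson interval reached at most 0.00614 percentage points to either side of a share, which covers counting error only. The healthy mean was 2.21% ± 1.57 (SD, n = 5) and the BCC mean 0.731% ± 0.373 (SD, n = 4), while AFL mice averaged 0.866% ± 0.983 (SD, n = 3) and vismodegib mice 0.844% ± 0.621 (SD, n = 4). The highest mouse stood 4.63-fold above the lowest in healthy skin, 3.36-fold in BCC, 12.9-fold after AFL and 4.66-fold after vismodegib.

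**Figure D1:**
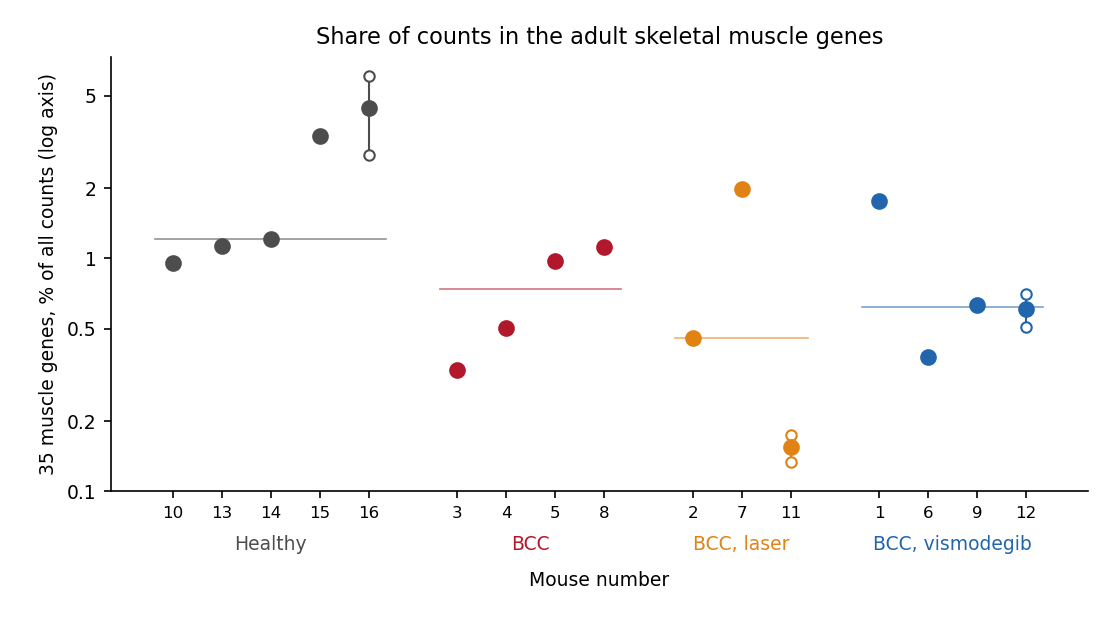
Share of all counts in the 35 muscle genes (y axis, %, log scale) for each mouse (x axis, by group). Filled points are mice, open points joined by a line are the paired libraries of 1 mouse, and horizontal lines are group medians. Within each group the mice spread at least 3.36-fold, and the pair of mouse 16 spreads from 2.79% to 6.07%.

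The paired libraries show how far libraries of 1 mouse can lie apart. Those of mouse 16 held 2.79% and 6.07%, a ratio of 2.17. The pairs of mouse 12 (0.508% and 0.700%) and mouse 11 (0.133% and 0.175%) were closer, with ratios of 1.38 and 1.31. The labels give mouse 16 an age of 128 days in 1 library and 135 days in the other.

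Levels by role follow, per gene length where genes are compared with each other. Means over the 16 mice were divided by the length of the longest coding transcript. On this scale the skeletal actin gene Acta1 led with 1624 CPM per kilobase. The fast troponins Tnnc2 (686), Tnnt3 (675) and Tnni2 (391), the fast light chains Mylpf (620) and Myl1 (262), the fast calcium pump Atp2a1 (439) and the muscle creatine kinase Ckm (342) followed in CPM per kilobase. The giant genes Ttn, whose protein spans from Z-disc to the middle of the sarcomere, and Neb, whose protein lies along the thin filament, had 4.55 and 7.12 CPM per kilobase. A level per kilobase of such long transcripts also depends on how evenly the libraries cover them, which was not tested. The slow genes were far lower, with Tnnc1 at 4.13, Tnnt1 at 3.71, Tnni1 at 3.09, Myl2 at 0.14, Myl3 at 0.131 and Myh7 at 0.0322 CPM per kilobase.

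**Figure D2:**
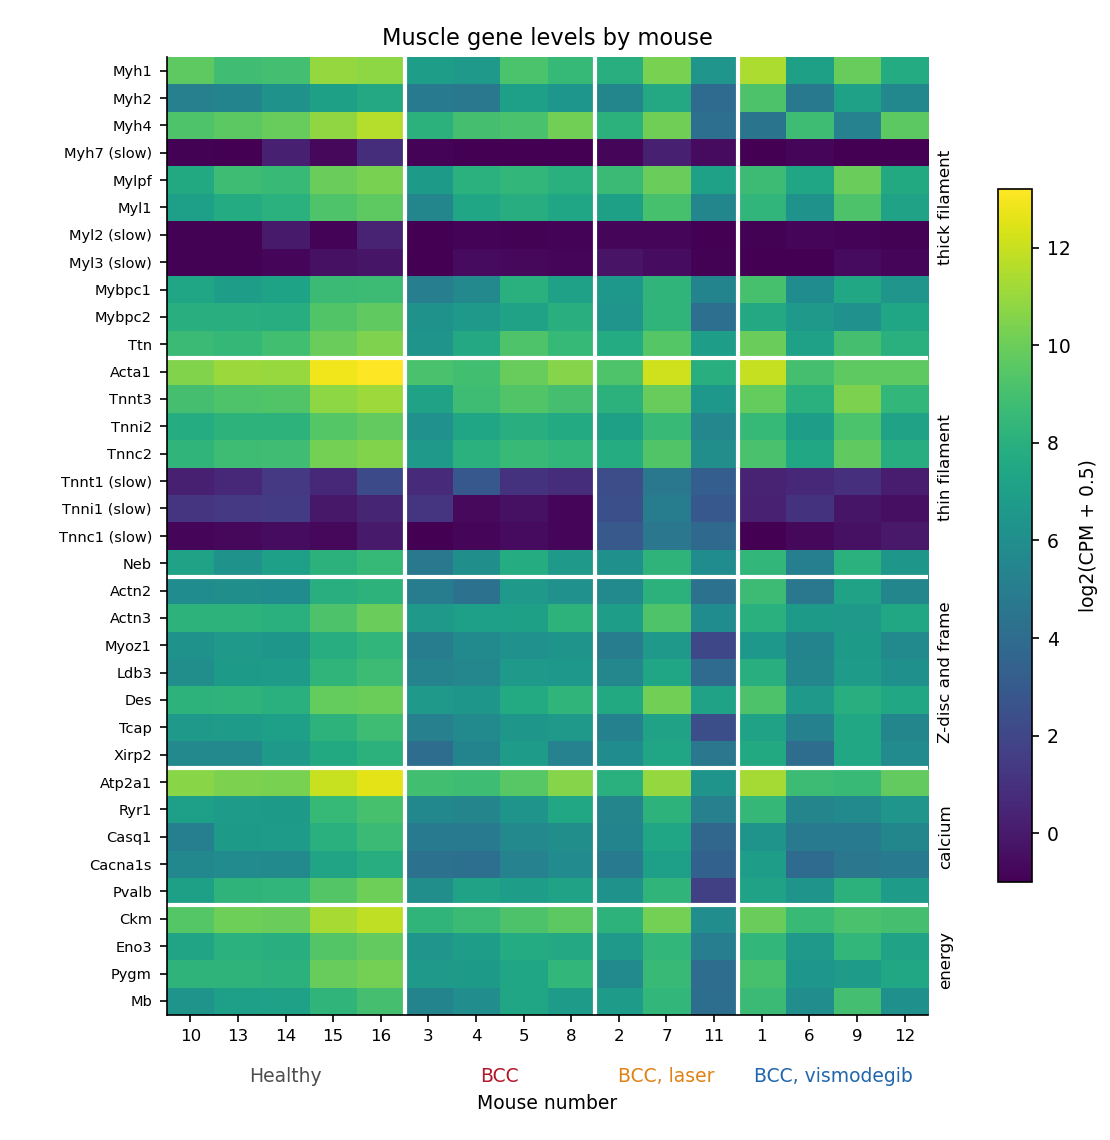
Levels of the 35 genes (rows, by role) in the 16 mice (columns, by group) as log2(CPM + 0.5), with slow-fibre genes marked. Rows of fast and shared genes rise and fall together from mouse to mouse, the rows of Myl2, Myl3 and Myh7 are at the bottom of the scale, and Myh4 is lowest in mice 1, 9 and 11.

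Among the thick filament genes, Myh4, the myosin heavy chain of the fastest (type 2B) fibres, had the highest mean CPM. It stood at 630.1, 796, 942, 1833 and 3079 CPM in healthy skin and at 282, 517, 554 and 1167 CPM in BCC. After AFL it was at 278, 1115 and 17.4 CPM, and after vismodegib at 21.5, 433, 38.0 and 799 CPM. The groups overlap, and 3 treated mice (11, 1 and 9) lie below each of the other 13. Against healthy skin the log2 fold change was -1.21 (SE 1.03, edgeR adjusted p = 0.643) in BCC and -2.17 (SE 1.07, adjusted p = 0.176) after vismodegib, and neither passed.

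The thin filament was led by Acta1, the actin of skeletal muscle. Its CPM values were 1438, 2161, 2013, 7471 and 9346 in healthy skin and 564, 470, 952 and 1558 in BCC. They were 614, 4578 and 249.7 CPM after AFL and 3992, 511, 828 and 816 CPM after vismodegib. The lowest healthy mouse lies just under the highest BCC mouse, and AFL mouse 7 and vismodegib mouse 1 stand alone in their groups. The mean of 886 ± 494 CPM in BCC against 4486 ± 3652 CPM in healthy skin gave a log2 fold change of -2.34 (SE 0.88, adjusted p = 0.216), which did not pass.

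The promoter of Acta1 is shown because the gene has the highest level of the set. The window runs from 250 bases before to 50 after the start given by RefSeq (build GRCm38.p6, chr8:123894726-123895025, minus strand, 5′ to 3′). Capitals mark, in this order, a CArG box (the site of serum response factor) at position -73, an M-CAT motif (CATTCC) at -46 and a TATA box (TATAAA) at -7, counted to the first base of each motif.
Acta1: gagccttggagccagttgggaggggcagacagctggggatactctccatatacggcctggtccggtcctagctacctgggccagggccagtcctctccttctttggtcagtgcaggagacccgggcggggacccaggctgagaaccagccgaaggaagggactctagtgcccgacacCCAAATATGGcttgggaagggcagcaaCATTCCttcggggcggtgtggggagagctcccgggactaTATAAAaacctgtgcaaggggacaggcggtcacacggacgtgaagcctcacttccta
RefSeq promoters were found for 29 of the 35 genes, 36 windows in all. A CArG box lies in 5 of these 36 windows (13.9%) and in 1.63% of the 32851 promoter windows of the same length in the table. The E-box CAGCTG, bound by myogenic factors, lies in 18 of 36 (50%) against 16.3% of all windows, and M-CAT, searched on both strands as CATTCC, in 11 of 36 (30.6%) against 14.7%. The looser E-box CANNTG, which includes CAGCTG, lies in 30 of 36 (83.3%) against 72.3%. These are matches of letters and say nothing of binding.

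Of the Z-disc and frame genes, Des, for the intermediate filament desmin that ties the Z-discs together, was the highest. It had 287, 297, 259.9, 908 and 1027 CPM in healthy skin and 96.6, 90.8, 206 and 308 CPM in BCC. It had 198, 1144 and 144 CPM after AFL and 604, 102, 237 and 179 CPM after vismodegib. AFL mouse 7 was above the healthy mice, while the other AFL mice were among the BCC mice. Des is also made in smooth muscle, and none of its contrasts passed (BCC against healthy: log2 fold change -1.66, SE 0.70, adjusted p = 0.283).

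Calcium handling was led by Atp2a1, the fast pump that returns calcium to the sarcoplasmic reticulum. Its levels were 1630.0, 1325, 1284, 4164 and 6360.3 CPM in healthy skin and 474, 447, 719 and 1560 CPM in BCC. They were 261, 1962 and 80.4 CPM after AFL and 2507, 428, 383 and 866 CPM after vismodegib. The log2 fold change of BCC against healthy skin was -1.88 (SE 0.85, adjusted p = 0.324). Casq1, the calcium store protein of the reticulum, had the smallest adjusted p of the calcium genes in that comparison (log2 fold change -2.09, SE 0.73, adjusted p = 0.176).

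Ckm, the muscle creatine kinase that rebuilds ATP, led the energy genes. It stood at 692, 1048, 974, 2617 and 3613 CPM in healthy skin and at 307, 415, 588 and 778 CPM in BCC. It stood at 289, 1182 and 61.4 CPM after AFL and at 985, 379, 563 and 514 CPM after vismodegib. Mouse 11 was the lowest of the 16 mice for Ckm, Atp2a1, Acta1 and Myh4. The log2 fold change of BCC against healthy skin was -1.78 (SE 0.68, adjusted p = 0.227).

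Induced, untreated skin was first set against skin that was never induced. Nearly all muscle genes had lower levels in BCC, and no single gene passed the test. Of 34 tested genes, 0 rose and 0 fell in edgeR's quasi-likelihood test, where 2.82% of all 15760 genes were called. The log2 fold change was below 0 for 33 of 34 genes, with a median of -1.49 against -0.0036 over all genes tested, and 18 had an unadjusted p under 0.05, as had 2237 of the 15760 genes. That number was 2 without healthy mouse 16, 6 without healthy mouse 15, 4 without BCC mouse 3, 5 without BCC mouse 4 and 1 with the replicate block. DESeq2 called 1 gene, Casq1 (-2.06, SE 0.64, adjusted p = 0.0291), and limma voom 0. Over all 15760 genes DESeq2 called 911. The medians were alike by fibre kind, at -1.49 for 13 fast genes and -1.55 for 16 shared genes. By role they were -1.33 for the thick filament, -1.39 for the thin filament, -1.55 for the Z-disc, -1.88 for calcium and -1.66 for energy. The range within the 29 fast and shared genes was from -2.34 (Acta1) to -0.51 (Myh2). Fat and smooth muscle markers were lower too. Of 14 adipocyte genes 13 were below 0 with a median of -1.39, their summed level lying between 1070 and 5043 CPM in healthy skin and between 653 and 1614 CPM in BCC. Of 12 smooth muscle genes, Des among them, 11 were below 0 with a median of -0.84, and 0 of either list passed. Other lists leaned the same way: 8 of 8 macrophage (median -0.64), 9 of 10 endothelial (-0.38) and 8 of 9 nerve and Schwann cell genes (-0.61) were below 0. Keratinocyte genes (4 of 14 below 0) and dermal fibroblast genes (4 of 10) did not. The part of these cell types in the lower muscle levels was not tested.

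After AFL 2 slow troponins rose against BCC, and no fast or shared gene passed the test. Of 34 genes, 2 rose against BCC (Tnnc1 and Tnni1) and 0 fell, where 7.75% of all genes were called. The 29 fast and shared genes had a median log2 fold change of 0.30 (all genes tested: -0.04), with 23 above 0 and 0 called. The median of all 34 genes was 0.47. It was -0.88 over the 35 genes tested without AFL mouse 7, and between 0.21 and 0.92 without any other single mouse. With days from induction as a covariate it was -2.02 over 32 genes, and Atp2a1 (-4.13, SE 0.77, adjusted p = 0.0119) and Pygm, the glycogen phosphorylase of muscle (-4.06, SE 0.75, adjusted p = 0.0118) fell against BCC, as they did against vismodegib (-2.93, adjusted p = 0.018, and -2.98, adjusted p = 0.0165). In that fit 161 of all 15535 genes fell against BCC and 379 against vismodegib. AFL mouse 7 was at 80 days from induction and the other induced mice at 109 to 144 days. The covariate and the removal of mouse 7 are therefore not separate checks. Against healthy skin 3 slow genes rose (Tnnc1, Tnni1 and Tnnt1) and 0 fell, where 9.24% of all genes were called. The 29 fast and shared genes were all below 0 there, with a median of -1.28 and 5 at an unadjusted p under 0.05 (3984 of the 15760 genes had one). The count of lower members was 2 in DESeq2 on the 16 mice, where 865 of all 15760 genes were lower. On the 19 libraries it was 6 in edgeR, with 1143 lower of all 15673 genes. That fit counts the paired libraries of 1 mouse as separate replicates. In limma voom with the mouse as a random effect it was 7, with 293 lower of all 15673 genes. Without mouse 7, 9 members fell in edgeR, as did 396 of all 15908 genes. Among the 9 were Atp2a1 (log2 fold change -4.12, SE 1.05, adjusted p = 0.0215), Ckm (-3.35, SE 0.81, adjusted p = 0.0161) and Pygm (-4.08, SE 0.99, adjusted p = 0.0166).

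After vismodegib no member passed the test in either direction. Against BCC 0 of 34 genes were called, where 17.0% of all genes were called, 1 had an unadjusted p under 0.05 (5161 of the 15760 genes had one), and DESeq2 and limma voom called 0. The median log2 fold change was 0.65, against 0.05 over all genes tested. Without mouse 1 it was 0.14. Against healthy skin 0 of 34 were called, where 11.6% of all genes were called, with 5 at an unadjusted p under 0.05, a smaller share than the 4986 of all 15760 genes. The median was -0.92, and -0.41 over the 32 genes tested without healthy mouse 16. DESeq2 called 3 there, all lower: Casq1 (-1.99, adjusted p = 0.0164), the fast myosin-binding protein gene Mybpc2 (-1.74, adjusted p = 0.0256) and Actn3, the alpha-actinin of fast fibres (-1.61, adjusted p = 0.0313). In the same fit DESeq2 called 3136 of all 15760 genes, a larger share than that of the members. Limma voom called 0. In AFL against vismodegib 3 slow genes rose and 0 fell, where 9.15% of all genes were called, and the fast and shared genes had a median of -0.45.

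**Figure D3:**
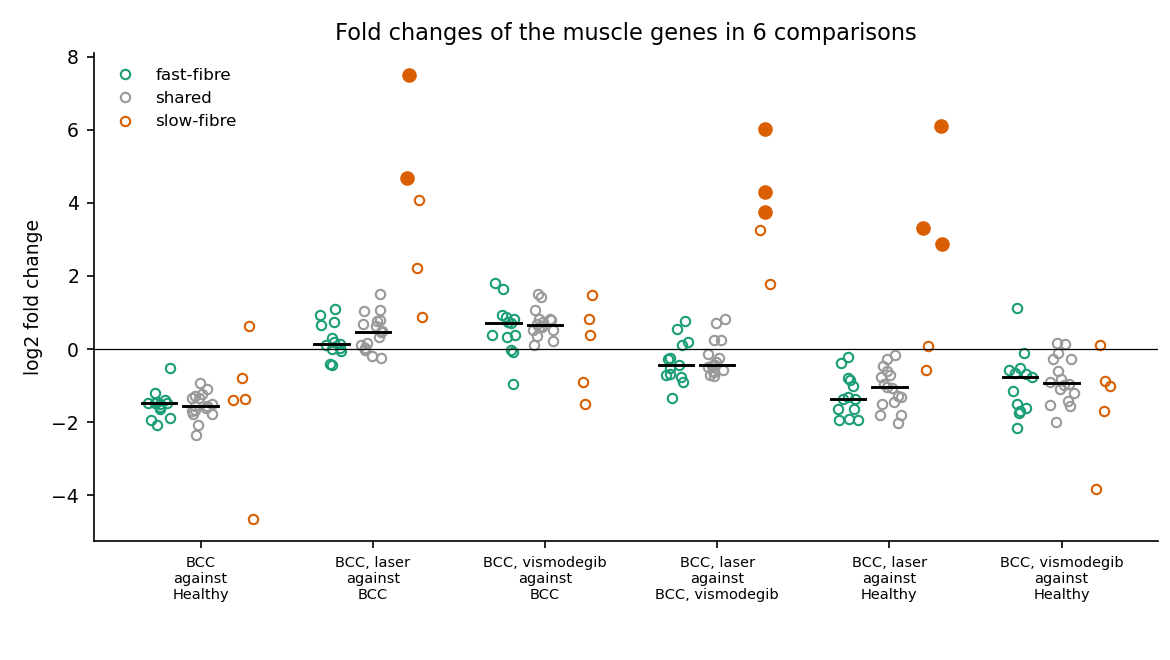
Log2 fold change (y axis) of each tested member in the 6 comparisons (x axis), split into fast, shared and slow genes. Filled points passed at an adjusted p under 0.05 in edgeR, open points did not, and black bars are medians of the fast and shared genes. The filled points are the slow troponins in the 3 comparisons of AFL with another group.

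The slow fibre genes fell into a set that was nearly silent and the slow troponins, which had higher means after AFL. After AFL 2 of 34 members were called against BCC, and 3 of 34 against healthy skin and against vismodegib. These counts are near the shares over all genes (7.75%, 9.24% and 9.15%), so the troponins are described as single genes. Myh7, the slow myosin heavy chain, and the slow light chains Myl2 and Myl3 reached at most 1.30, 0.81 and 0.361 CPM in any mouse. Myh7 counts were 1, 0, 25, 4 and 90 in healthy skin, 2, 0, 0 and 0 in BCC, 2, 22 and 11 after AFL and 0, 3, 0 and 1 after vismodegib. With so few counts a fold change is not given.

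The slow troponins behaved otherwise. Troponin is a complex of 3 proteins, in which troponin C binds calcium, troponin I holds back the actin and myosin contact, and troponin T fastens the complex to tropomyosin. The slow forms are known from slow fibres and also from developing muscle, and Tnnc1 is the form of the heart as well.

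Tnnc1 had 0.0887, 0.117, 0.193, 0.116 and 0.506 CPM in healthy skin, 0, 0.0882, 0.155 and 0.0817 CPM in BCC, 7.33, 24.3 and 13.8 CPM after AFL, and 0, 0.122, 0.266 and 0.487 CPM after vismodegib. The lowest AFL mouse stood above each of the other 13 mice, from 11 counts over the 4 BCC mice to 1917 over the 3 AFL mice. The log2 fold change was 7.50 against BCC (SE 0.98, adjusted p = 0.000167), 6.01 against vismodegib (SE 0.89, adjusted p = 0.00069) and 6.11 against healthy skin (SE 0.81, adjusted p = 0.000116). These calls held under all alternatives run.

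Tnni1 had 1.77, 2.07, 2.29, 0.434 and 0.882 CPM in healthy skin, 1.77, 0.147, 0.28 and 0.0817 CPM in BCC, 4.95, 32.0 and 7.13 CPM after AFL, and 0.751, 1.58, 0.372 and 0.252 CPM after vismodegib. The AFL mice were again above the others, with log2 fold changes of 4.68 against BCC (SE 1.00, adjusted p = 0.00752), 4.31 against vismodegib (SE 0.98, adjusted p = 0.0121) and 3.30 against healthy skin (SE 0.86, adjusted p = 0.0223). The calls were less firm: with days from induction as a covariate they ended against BCC (2.83, adjusted p = 0.169) and vismodegib (2.72, adjusted p = 0.156), and without AFL mouse 7 against vismodegib (3.03, adjusted p = 0.0672) and healthy skin (2.02, adjusted p = 0.149). Against healthy skin the call also ended without healthy mouse 10 (3.36), 15 (3.07) or 16 (3.16), each at an adjusted p from 0.0505 to 0.0506.

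Tnnt1 had 0.71, 0.991, 2.04, 1.04 and 4.06 CPM in healthy skin, 1.10, 7.08, 1.62 and 1.31 CPM in BCC, 4.63, 25.4 and 9.00 CPM after AFL, and 0.786, 1.07, 1.49 and 0.597 CPM after vismodegib. BCC mouse 4 lay among the AFL mice. The gene rose after AFL against vismodegib (log2 fold change 3.74, SE 0.78, adjusted p = 0.0072) and against healthy skin (2.86, SE 0.69, adjusted p = 0.0139). Against BCC it stood at 2.23 (SE 0.74, adjusted p = 0.0816), and without BCC mouse 4 at 3.27 (SE 0.71, adjusted p = 0.0128). With all mice it passed in DESeq2 (2.20, adjusted p = 0.0228) and in limma voom on the 19 libraries (2.31, adjusted p = 0.0335). The call against healthy skin ended without AFL mouse 7 (1.93, adjusted p = 0.0938), and that against vismodegib with days from induction as a covariate (3.23, adjusted p = 0.0634).

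**Figure D4:**
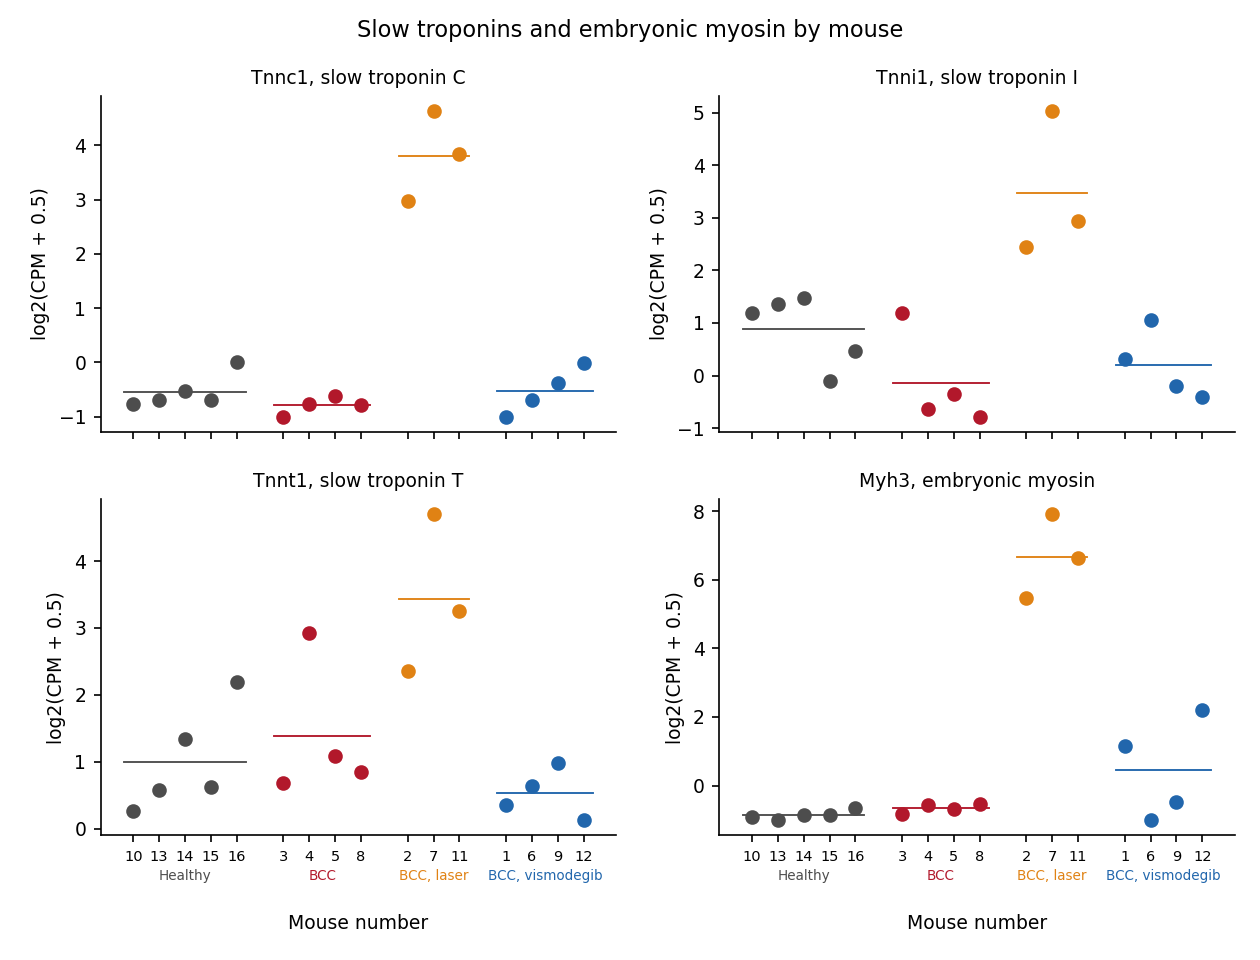
Levels of the slow troponin genes Tnnc1, Tnni1 and Tnnt1 and of the embryonic myosin gene Myh3 as log2(CPM + 0.5) (y axis) in each mouse (x axis, by group), with a line at the mean of each group. The 3 AFL mice are the highest for Tnnc1, Tnni1 and Myh3, and BCC mouse 4 lies between AFL mice for Tnnt1.

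The promoter of Tnnc1 is shown as that of the member with the largest rise (RefSeq, GRCm38.p6, chr14:31208062-31208361, plus strand). Capitals mark its M-CAT motif, on the other strand as GGAATG, at -58. No MEF2 site, CArG box, TATAAA or CAGCTG was found in this window.
Tnnc1: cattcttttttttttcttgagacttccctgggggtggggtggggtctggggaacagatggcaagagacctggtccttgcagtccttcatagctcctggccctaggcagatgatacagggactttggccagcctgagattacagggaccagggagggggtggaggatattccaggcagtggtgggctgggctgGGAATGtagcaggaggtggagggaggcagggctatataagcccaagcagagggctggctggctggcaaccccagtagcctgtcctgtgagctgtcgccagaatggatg
Its window shares the M-CAT motif with those of Acta1, Myh4 and Myh1, none of which was called after AFL.

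As a share of the counts in the 13 fast and 6 slow genes together, the slow genes made up 0.752%, 0.867% and 4.32% after AFL. In the other 13 mice the share lay between 0.0133% and 0.268%. The AFL mouse with the least muscle RNA, mouse 11, had the largest slow share, and both of its libraries showed it (4.54% and 4.14%). The fast genes, which stand in the denominator, took 0.0659% of its counts, the lowest of all mice. By level the slow genes were highest in mouse 7, with summed levels of 17.4, 82.7 and 30.1 CPM in AFL mice 2, 7 and 11. The AFL mice also stood high for genes of embryonic and regenerating muscle, a list of 17 genes kept apart from the members. Like the members, it was chosen with earlier results of these data known, so its counts are no separate test. Of these genes, 14 rose after AFL against BCC with a median log2 fold change of 4.39, where 7.75% of all genes were called. Against vismodegib 8 rose (9.15% of all genes called) and against healthy skin 12 (9.24%), and 0 fell in each. Myh3, the embryonic myosin heavy chain, had 44.1, 238 and 98.5 CPM in the AFL mice and at most 4.07 CPM in the other mice (against BCC: log2 fold change 9.81, SE 1.25, adjusted p = 0.000155). Myl4, the embryonic light chain, rose by 6.01 (SE 0.70, adjusted p = 7.93e-05). Markers of macrophages stood high in the same mice, 8 of 8 rising against BCC, with a summed level between 2815 and 3750.3 CPM after AFL and between 262 and 547 CPM in BCC. Of 10 endothelial genes 5 rose, with a median of 1.39 and a summed level between 293 and 593 CPM after AFL and between 127 and 216 CPM in BCC. Of 6 cardiac genes tested 2 rose, among them Mybpc3, a myosin-binding protein of the heart (3.70, SE 0.83, adjusted p = 0.0105). It too was near 0, with a mean of 0.496 CPM after AFL, from 78 counts there and 5 in BCC. After vismodegib it also rose against BCC (2.59, SE 0.82, adjusted p = 0.0413). Against healthy skin 3 of the 6 cardiac genes rose after AFL and 2 after vismodegib, where 9.24% and 11.6% of all genes were called. Myh6 and Nppa stayed at the levels near 0 given above. The part of these cell types in the slow troponin levels was not tested.

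The 3 fast myosin heavy chains were not taken in a fixed proportion. Myh4 (type 2B), Myh1 (type 2X) and Myh2 (type 2A) lie next to one another on chromosome 11 in the order Myh3, Myh2, Myh1, Myh4, Myh8 and Myh13, and their fibres run from fastest and least oxidative (2B) to slower and more oxidative (2A). Of the per-kilobase level of Myh1, Myh2, Myh4 and Myh7 together, Myh4 took 42.9%, 61.6%, 62.9%, 46.7% and 61.2% in healthy skin and 66.0%, 80.7%, 44.5% and 72.4% in BCC. It took 50.0%, 43.0% and 15.0% after AFL, and 0.635%, 73.2%, 3.45% and 75.8% after vismodegib. The vismodegib group is split, with mice 6 and 12 among the BCC mice and mice 1 and 9 far below each healthy and BCC mouse.

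In mice 1 and 9 Myh1 made up 81.6% and 83.9%, and Myh2 17.8% and 12.7%. Mouse 1 had 2789 CPM of Myh1, the highest of the 16 mice, beside 21.5 CPM of Myh4, and mouse 9 had 933 CPM beside 38.0 CPM. The per-kilobase ratio of Myh4 to Myh1 was 0.00779 in mouse 1, 0.0411 in mouse 9 and 0.207 in mouse 11, and between 0.782 and 5.23 in the other 13 mice. Of the other fast genes of mouse 1, Atp2a1 at 2507 CPM lay among the healthy mice, while Mybpc2 (191 CPM) and Actn3 (253 CPM) lay below each healthy mouse. As a group, vismodegib against BCC gave no call for Myh1 (log2 fold change 1.82, SE 0.97, adjusted p = 0.208), Myh2 (1.63, SE 0.97, adjusted p = 0.258) or Myh4 (-0.96, SE 1.06, adjusted p = 0.569). In the paired libraries Myh4 took 77.8% and 74.2% in mouse 12, 73.1% and 55.3% in mouse 16, and 18.8% and 11.9% in mouse 11. The make-up could thus shift between libraries of 1 mouse. The ratio of Myh4 to Myh1 was 3.07 and 1.36 in mouse 16, and Myh2 took 8.37% and 16.0% in mouse 11. Mice 1 and 9 have a single library each. The counts of Myh1 and Myh2 were not whole in 19 of 19 libraries and those of Myh4 in 16, so reads that match several of these similar genes were shared out by estimate and the split is less certain than the sum.

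**Figure D5:**
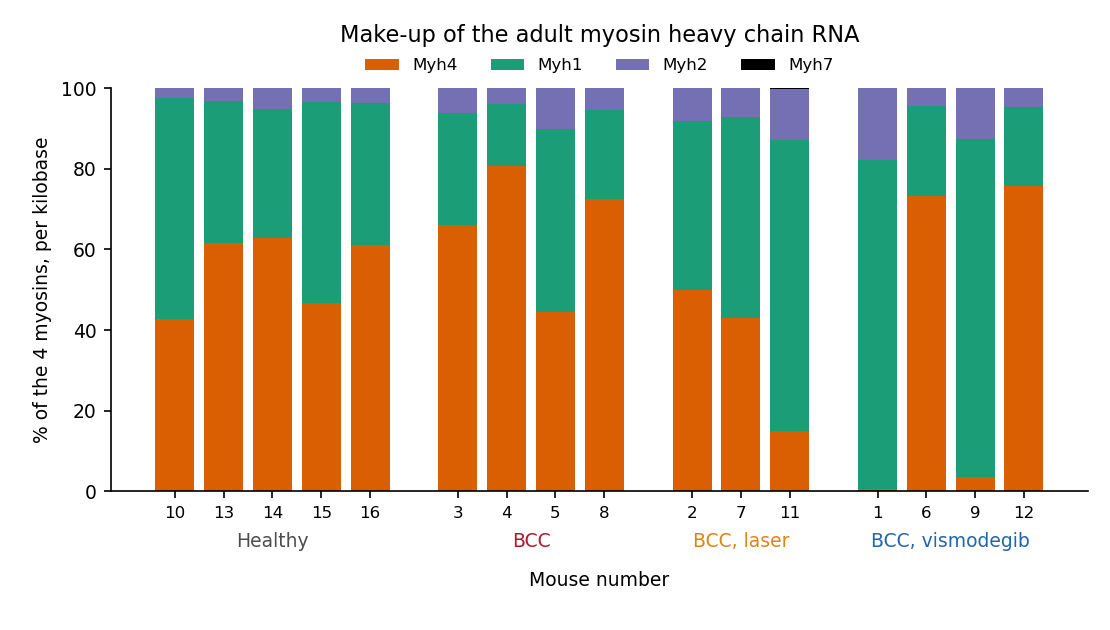
Share of Myh4, Myh1, Myh2 and Myh7 in their summed level per kilobase (y axis, %) for each mouse (x axis, by group). Myh4 makes up 42.9% or more in 13 mice, 15.0% in mouse 11, 3.45% in mouse 9 and 0.635% in mouse 1.

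The promoters of Myh4 and Myh1 are shown because these neighbours part ways in mice 1, 9 and 11 (RefSeq, GRCm38.p6, both plus strand, Myh4 at chr11:67237562-67237861 and Myh1 at chr11:67199852-67200151). Capitals in Myh4 mark an M-CAT motif at -231, TATAAA at -213, a MEF2 site at -182 that overlaps a TATA box on the other strand at -179, a CArG box at -104 and TATAAA at -31. Capitals in Myh1 mark a MEF2 site at -211 that overlaps a TATA box on the other strand at -208, TATAAA at -32 and M-CAT, on the other strand, at -16.
Myh4: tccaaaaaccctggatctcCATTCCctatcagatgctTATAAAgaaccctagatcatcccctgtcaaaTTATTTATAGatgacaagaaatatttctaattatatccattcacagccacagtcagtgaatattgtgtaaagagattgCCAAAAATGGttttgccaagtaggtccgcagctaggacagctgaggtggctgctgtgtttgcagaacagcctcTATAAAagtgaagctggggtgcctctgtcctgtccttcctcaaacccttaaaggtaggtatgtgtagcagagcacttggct
Myh1: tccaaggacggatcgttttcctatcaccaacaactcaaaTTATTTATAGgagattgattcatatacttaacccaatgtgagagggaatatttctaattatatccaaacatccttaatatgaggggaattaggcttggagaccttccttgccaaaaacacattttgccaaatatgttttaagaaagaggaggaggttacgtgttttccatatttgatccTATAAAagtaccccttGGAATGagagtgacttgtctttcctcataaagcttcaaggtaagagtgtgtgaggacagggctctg
Both windows hold a MEF2 site with the same letters, found in 3.19% of all windows and in 5 of the 36 of the set. The Myh4 window also holds a CArG box and, in lower case, a CAGCTG E-box at -67, and the Myh1 window holds neither. TATAAA on either strand lies in 7 of the 36 windows (19.4%) and in 13.6% of all windows.

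Apart from Myh4, the fast and shared genes moved as a block from mouse to mouse. For each of these 29 genes the Pearson correlation of log2(CPM + 0.5) with the mean of the others over the 16 mice lay between 0.445 (Myh4) and 0.984, with a median of 0.913 and 18 over 0.9. The median SD over mice was 1.29 on the log2 scale for a gene's level and 0.55 for its difference from the mean of the other members, so that most of the spread was common to the set. These correlations describe points that share group, library and scaling.

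Departures from the block gathered in few mice. In AFL mouse 11 the calcium buffer parvalbumin, Pvalb, lay 3.43 log2 units below the mean of the other members, which is given as a difference of -3.43. In the other 15 mice this difference was between -1.43 and 0.48. Tcap (-2.72) and the Z-disc gene Myoz1 (-3.06) were at their lowest in the same mouse. Desmin went the other way, with differences of 0.91, 1.43 and 2.22 in the AFL mice and of -0.18 to 0.71 elsewhere. Vismodegib mouse 9 departed in both directions and for more genes. Its difference was the highest of the 16 mice for Mylpf (2.22), Myl1, Tnnt3 (2.70), Tnni2, Tnnc2, Tcap, Xirp2, Eno3 and Mb. It was the lowest for Acta1, Mybpc2, Actn3, Atp2a1, Ryr1, Casq1 (-3.13), Cacna1s (-3.28) and Pygm. The genes at their highest have short longest coding transcripts, of 700 to 1564 bases, apart from Xirp2 (11979). Those at their lowest have 1847 to 15358 bases, apart from Acta1 (1446). Mouse 9 has 1 library, and the part of transcript length or RNA quality in its departures was not tested. With the mean level of the fast and shared members as a covariate, an alternative chosen after seeing the data, Des rose after AFL against BCC (log2 fold change 1.31, SE 0.29, adjusted p = 0.0102) and Myoz1 fell (-0.98, SE 0.29, adjusted p = 0.0443). That mean includes Des and Myoz1 themselves, and their departures were read from the same values. These edgeR values therefore describe the departures again and are no separate test of them.

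Genes outside the set were ranked by how closely they tracked it. Of 18432 other genes, 80 had a Pearson r over 0.9 with the members' mean log2(CPM + 0.5) over the 16 mice. The highest 10 were Tmem38a (0.986), a potassium channel of the sarcoplasmic reticulum, Hrc (0.983), a calcium-binding protein there, Tmod1 (0.976), which caps thin filaments, Art1 (0.973), Stac3 (0.972) and Jsrp1 (0.971), both of the coupling of excitation to contraction, Fitm1 (0.971), Myadml2 (0.970), Tmem52 (0.969) and Asb12 (0.969). A list of 60 other adult muscle genes had a median r of 0.877 and held 22 of the 80. The medians were 0.678 for adipocyte genes, 0.616 for smooth muscle genes, 0.078 for embryonic and regenerating muscle genes and -0.153 for cardiac genes.

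The 60 other adult muscle genes gave few calls, and the named ones are described as single genes. Over all genes tested, 2.82% were called in BCC against healthy skin and 17.0% in vismodegib against BCC. For AFL the shares were 7.75% against BCC, 9.24% against healthy skin and 9.15% against vismodegib. In BCC against healthy skin 0 were called and 56 lay below 0, with a median log2 fold change of -1.21. After AFL 4 rose and 0 fell against BCC, with a median of 0.36, among them Chrna1, a subunit of the acetylcholine receptor (2.64, SE 0.69, adjusted p = 0.026), and Tpm3, a tropomyosin also made outside muscle (0.68, SE 0.19, adjusted p = 0.0336). Against healthy skin 2 rose, Chrna1 among them (3.34, SE 0.65, adjusted p = 0.00281), and 1 fell, the tropomyosin Tpm1 (-1.48, SE 0.42, adjusted p = 0.0345). Against vismodegib 2 rose, Chrna1 (3.13, SE 0.70, adjusted p = 0.0107) and Casq2 (2.17, SE 0.54, adjusted p = 0.0203), the calsequestrin of slow and heart muscle. After vismodegib against BCC 1 rose, Tpm3 (0.62, SE 0.17, adjusted p = 0.0244), and 2 fell, among them the dystrophin gene Dmd (-1.82, SE 0.36, adjusted p = 0.0034). Of 12 genes known from muscle wasting and loss of nerve supply, 3 rose after AFL against BCC, among them the myogenic factor Myog (5.12, SE 1.00, adjusted p = 0.00404) and the foetal acetylcholine receptor gene Chrng (6.87, SE 1.5, adjusted p = 0.0088), which are on the embryonic list as well.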

How the data were processed

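Per the submitters' processing notes, reads were handled with Bowtie2 and RSEM on GRCm39, and the authors deposited 1 table of expected counts per gene. Their versions, the annotation and the strand setting were not stated there (not given in the sources used here). The labels describe a directional kit with oligo dT selection. Expected counts were rounded, and libraries of the same mouse were summed. RSEM shares reads among similar genes, and 3.42% of deposited values were not whole.

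Groups were compared with edgeR 4.0.16 in R 4.3.3 (TMM scaling, filterByExpr, quasi-likelihood test, Benjamini-Hochberg adjustment over 15760 genes for each of 6 comparisons, threshold 0.05). The comparisons share groups, so they are not independent. DESeq2 1.42.0, limma 3.58.1 (voom), other scalings and filters, left-out mice, a replicate block, days from induction and the muscle level were alternatives. The fit was tested on simulated data. p-values measure the spread between these mice, except in the edgeR fit with 19 libraries as replicates. That fit counts the paired libraries of 1 mouse as independent, so its calls are not on a level with the others. Values per mouse are printed for the member with the highest mean CPM of each role, for the highest slow member and for members that passed. From other lists the 2 genes with the smallest p were named. The members and lists were chosen with earlier results of these data known. Lengths and promoters come from reference tables, the promoters from GRCm38.p6, with no coordinates converted. A gene of the cardiac list is not reported here.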

Additional observations from a re-analysis of the deposited data

Results flagged for a closer look

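In 7 of 117 groups of values checked, 1 mouse lay far from the others of its group, where chance gives about 1 in 20. Vismodegib mouse 1 stood apart for Acta1 (3992 CPM, next 828), for the calcium release channel gene Ryr1 (352 CPM, next 85.2) and for the calcium channel gene Cacna1s (122 CPM, next 28.6). It is the vismodegib mouse with the most muscle RNA and the least Myh4. BCC mouse 4 stood apart for Tnnt1 (7.08 CPM, next 1.62). BCC mouse 3 stood apart for Tnni1 (1.77 CPM, next 0.28) and for Myh7 (0.0579 CPM, from 2 counts, the others at 0). Healthy mouse 16 stood apart for Tnnc1 (0.506 CPM, next 0.193).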

How the results depend on the processing

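Tnnc1 rose after AFL in each comparison under all alternatives run. The number of members called moved by over 1.5 times in these cases. In BCC against healthy skin DESeq2 called 1. In AFL against healthy skin there were 9 calls with 19 libraries as replicates (6 of them lower), 5 with DESeq2 and 10 with limma voom on the 19 libraries. Over all genes these fits called 3058 of 15673, 2479 of 15760 and 1539 of 15673. In vismodegib against healthy skin there were 4 with 19 libraries and 3 with DESeq2, all lower. Over all genes these fits called 3425 of 15673 and 3136 of 15760. The muscle level as a covariate was chosen after seeing the data, and it is a mean that includes the fast and shared members themselves. With it there were 4 calls in AFL against BCC and 5 in AFL against vismodegib. There were 5 in AFL against healthy skin and 3 in vismodegib against healthy skin. Over all 15760 genes this fit called 1523, 2029, 2035 and 1900, in the same order of comparisons. The log2 fold change of Myh4 in BCC against healthy skin turned to 0.17. The cause was not tested. Leaving out 1 mouse at a time gave 2 to 10 calls in AFL against healthy skin (10 without AFL mouse 7), 0 to 2 in vismodegib against healthy skin, 2 to 3 in both other AFL comparisons, and 0 in the other comparisons. With days from induction as a covariate the median in AFL against BCC was -2.02. That covariate sets AFL mouse 7, at 80 days, apart from the other induced mice, so it overlaps with leaving mouse 7 out.

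Replicate numbers are shared across groups. Over 21 pairs of mice with the same number the correlation of deviations lay between -0.385 and 0.616, with 7 over 0.1. Pairs with different numbers were not set beside them, so these values cannot decide whether mice of the same number belong together. With the replicate block 3 members rose in AFL against BCC, where Tnnt1 passed (2.10, adjusted p = 0.0238), and 2 in AFL against healthy skin, where Tnni1 did not (2.57, adjusted p = 0.0615). Depth limits the slow genes Myh7, Myl2 and Myl3, which had at most 90, 56 and 25 counts in a mouse.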

Other observations

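Of 17 genes of embryonic and regenerating muscle, 3 rose and 1 fell after vismodegib against BCC, where 17.0% of all genes were called, with a median log2 fold change of 1.63. Against healthy skin 2 rose and 0 fell, where 11.6% of all genes were called. Both counts are near those shares, so only single genes are described. Myh3 rose against BCC (3.48, SE 1.05, adjusted p = 0.035) and against healthy skin (4.58, SE 1.04, adjusted p = 0.0125). Its levels were 1.74, 0, 0.212 and 4.07 CPM in mice 1, 6, 9 and 12, so the mice differed. The foetal acetylcholine receptor gene Chrng rose against healthy skin (5.33, SE 1.47, adjusted p = 0.0297). Ncam1, a cell adhesion gene of muscle and of nerve and other cells, rose in BCC against healthy skin (2.09, SE 0.28, adjusted p = 0.000532) and fell after vismodegib against BCC (-2.60, SE 0.31, adjusted p = 0.000192).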
